A study of Mus musculus with 2 samples.

Results

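The GBP and IRG proteins are GTPases that cells make after exposure to interferon. The 9 genes described here were Iigp1, Irgm1, Irgm2, Igtp and Tgtp1 of the IRG family (immunity-related GTPases) and Gbp2, Gbp3, Gbp5 and Gbp7 of the GBP family (guanylate-binding proteins). They were taken by symbol from the feature list, and all 9 were found among 32245 distinct symbols. They had been chosen by their measured levels across cell classes and between libraries in these data, so their pattern over classes and their direction between libraries are given as description, and nothing is supported with them.

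Type II interferon, made by T and NK cells, acts through the receptor Ifngr1 and Ifngr2 and the kinases Jak1 and Jak2, and it induces the transcription factor Irf1. GBP and IRG promoters carry GAS elements, known for the response to type II interferon, and ISRE elements, where IRF proteins bind and through which type I interferon also acts. GBP and IRG proteins coat and break vacuoles and membranes of intracellular microbes. Irgm1, Irgm2 and Igtp are the regulatory IRGs that guard the cell's own membranes, while Iigp1 and Tgtp1 are effector IRGs. Loading of these GTPases onto membranes needs the ATG8 conjugation machinery, of which Atg5 is a component, which is the link to the gene deleted here.

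Mouse retinas were dissociated and profiled cell by cell after each eye received 0.5 µg LPS (bacterial lipopolysaccharide) in the vitreous. Each group gave 1 library, made from 6 retinas pooled, so 2 libraries were compared. The control library was Atg5fl/fl, in which Atg5 is flanked by loxP sites and intact, with LPS alone. The knockout library was GLAST-CreER; Atg5fl/fl with LPS and 4-hydroxy-tamoxifen, where GLAST-CreER drives a drug-activated Cre in Müller glia. Both groups carried the floxed allele and received LPS, and there was no retina without LPS. Since only the knockout group had Cre and the drug, genotype, Cre and drug cannot be told apart. With 1 library per group no test between groups was possible. All intervals below are 95% intervals of counting error only, and a difference beyond them compares these libraries, not the genotypes.

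Of 8690 control and 5229 knockout barcodes, 8273 and 4661 cells were kept, with median depths of 1396 and 6808 UMIs (unique molecular identifiers, 1 per captured transcript). The libraries shared 15 barcodes among kept cells. Classes were rebuilt from marker genes and are called "-like". Müller glia-like cells numbered 414 (control) and 588 (knockout), at median depths of 14730 and 20198 UMIs. Atg5 itself was at 20.5 and 18.6 CPM (UMI counts scaled to the same total in each class and library) in Müller glia-like cells, a ratio of 0.906 (0.728 to 1.13). Counts at transcript ends need not report the deleted exon, so this level checks nothing. In these cells all 13 Müller markers were detected, the rod marker sum was 1974 CPM against 676 CPM in the knockout library, and the neutrophil marker sum 289 against 83.8 CPM. T and NK markers were at 1.21 and 0.675 CPM, with Cd3e, Cd3d and Cd3g at 0. The part of these other-cell transcripts in the results was not tested.

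The promoter sequences are shown first, because they carry the elements through which interferon reaches these genes. In GRCm38 (mm10), the GBP members lay together on chromosome 3: Gbp5 at chr3:142493978-142522344, Gbp7 at chr3:142530342-142550149, Gbp3 at chr3:142560026-142573209 and Gbp2 at chr3:142620602-142638008, all on the plus strand. On chromosome 11, Igtp lay at chr11:58199556-58207591 and Irgm2 at chr11:58199618-58222782, on the plus strand and overlapping in the annotation. Irgm1 was at chr11:48861968-48871683 and Tgtp1 at chr11:48985327-48994172, on the minus strand. The promoter of Iigp1 is not used here. Reads of the overlapping pair Irgm2 and Igtp, and of Tgtp1 and its near-identical neighbour Tgtp2, may be split or lost in counting, so the levels of these members are uncertain.

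RefSeq promoters (GRCm38.p6) of the other 8 members, with 9 start sites, were searched over the 250 bases before the start for the ISRE core GAAANNGAAA and the GAS core TTCNNNGAA, on both strands. All 8 held an ISRE core, against 2.98% of 32851 RefSeq promoters. The members are counted as genes and the background as promoters. Every match lay at the first listed start site of a member, and the remaining start site held neither core. A GAS core was found in 5 of the 8 (Irgm2, Igtp, Tgtp1, Gbp5 and Gbp7), against 7.02% of all promoters. In Igtp, Irgm2 and Tgtp1 the GAS core was followed, 2 bases later, by the ISRE core. That arrangement was present in 5 of all 32851 promoters, a count that includes those of these 3 genes. The stretches from 120 to 21 bases before the start site of these 3 genes are given below to show the shared arrangement, with the matched bases in capitals.
Igtp (chr11:58199436-58199535, plus strand): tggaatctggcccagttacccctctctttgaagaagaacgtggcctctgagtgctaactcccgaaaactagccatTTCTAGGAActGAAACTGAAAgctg
Irgm2 (chr11:58214857-58214956, plus strand): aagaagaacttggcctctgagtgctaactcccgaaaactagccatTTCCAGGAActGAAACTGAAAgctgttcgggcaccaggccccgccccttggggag
Tgtp1 (chr11:48992267-48992366, minus strand): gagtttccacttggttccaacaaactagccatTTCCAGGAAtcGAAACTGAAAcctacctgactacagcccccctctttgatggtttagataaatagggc

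The remaining 5 promoters show other arrangements. Gbp7 has GAS cores at a distance from its ISRE core, Irgm1 and Gbp3 have overlapping ISRE cores, and Gbp2 has a lone ISRE core. For Irgm1, Gbp2 and Gbp5, where annotated exons reach into the stretch, only 30 bases around the ISRE core are given.
Gbp7 (chr3:142530216-142530315, plus strand): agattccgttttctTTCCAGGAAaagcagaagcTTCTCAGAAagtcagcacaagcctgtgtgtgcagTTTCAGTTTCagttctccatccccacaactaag
Gbp3 (chr3:142559924-142560023, plus strand): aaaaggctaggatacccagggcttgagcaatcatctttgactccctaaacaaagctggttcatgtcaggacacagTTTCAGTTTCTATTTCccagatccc
Irgm1 (chr11:48871428-48871457, minus strand): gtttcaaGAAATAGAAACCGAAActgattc
Gbp2 (chr3:142620594-142620623, plus strand): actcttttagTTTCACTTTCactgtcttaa
Gbp5 (chr3:142496759-142496788, plus strand): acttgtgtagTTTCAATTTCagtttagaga
A match of letters is a description of the promoter and shows no binding. Besides the ISRE core at 165 to 156 bases before its start, Gbp5 has GAS cores at 245 to 237 and at 52 to 44 bases before it.

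**Figure D1:**
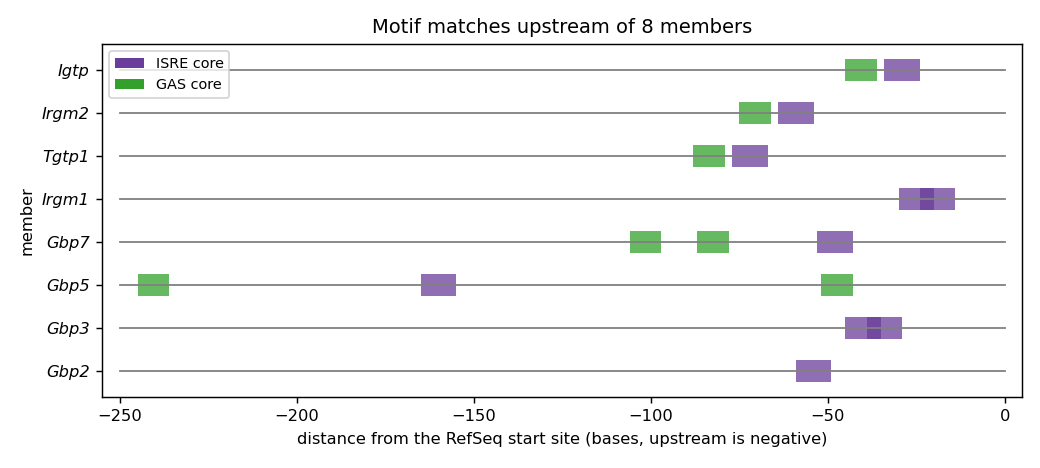
Position of ISRE cores (purple) and GAS cores (green) in the 250 bases before the first listed RefSeq start site of 8 members, with distance in bases on the horizontal axis. Igtp, Irgm2 and Tgtp1 show a GAS core 2 bases before an ISRE core, and Irgm1 and Gbp3 show overlapping ISRE cores.

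The members were detected in every class. In the control library their summed level was 662 CPM (643 to 682) in Müller glia-like cells and 643 CPM (607 to 681) in 55 endothelial-like cells, values whose intervals overlapped. Neutrophil-like cells followed at 406 CPM (378 to 437) and monocyte and macrophage-like cells at 383 CPM (358 to 409), again with overlapping intervals, and 18 T and NK-like cells were at 313 CPM (252 to 385). Below them came cone-like cells at 250 CPM, horizontal-like cells at 162 CPM, rod-like cells at 100 CPM (90.2 to 111), bipolar-like cells at 94.9 CPM (86.5 to 104), amacrine-like cells at 67.6 CPM (61.6 to 73.9) and retinal ganglion-like cells at 37.3 CPM. Pericyte-like cells numbered 13 and 3, and the knockout library held 2 T and NK-like cells with 4 member UMIs, too few to place.

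In the knockout library endothelial-like cells stood highest, at 932 CPM (891 to 974), ahead of Müller glia-like cells at 597 CPM (583 to 611). The next levels lay close together: amacrine-like cells at 213 CPM (205 to 222), neutrophil-like cells at 209 CPM (185 to 235), monocyte and macrophage-like cells at 190 CPM (166 to 217) and retinal ganglion-like cells at 189 CPM (173 to 205). Bipolar-like cells were at 140 CPM (132 to 149), rod-like cells at 78.5 CPM (55.8 to 107) and cone-like cells at 10.2 CPM (4.41 to 20.1). Immune classes were thus above amacrine-like cells in the control library, while in the knockout library their intervals overlapped.

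**Figure D2:**
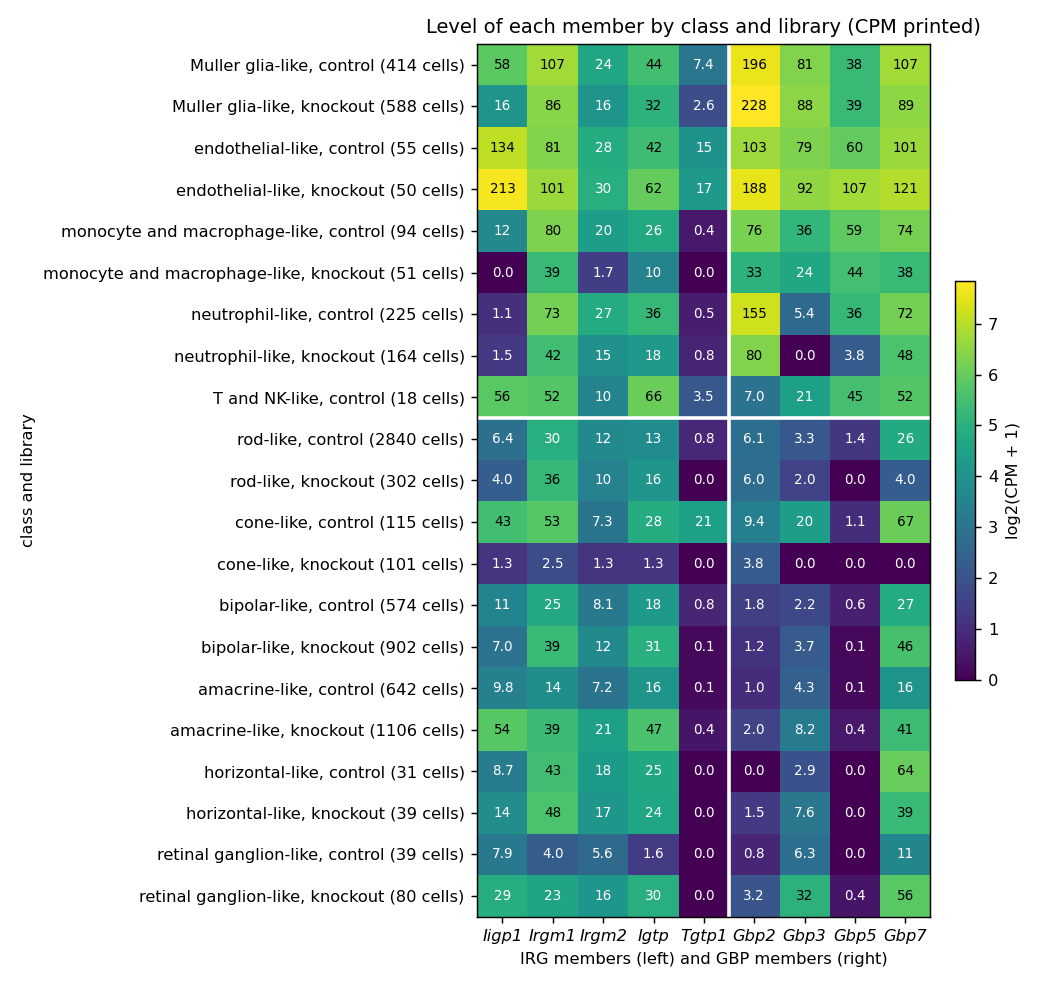
CPM of each member (columns) in each class and library (rows), with colour on a log2(CPM + 1) scale and the CPM printed. Gbp2 is high in the glial, vascular and myeloid rows and near 0 in most neuron rows, as is Gbp5 except in knockout neutrophil-like cells (3.83 CPM), while Irgm1, Igtp and Gbp7 are spread over both.

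Which GTPases made up the sum differed by class, and the clearest difference was Gbp2. Of all member UMIs, Gbp2 gave 29.5% (28.2 to 30.9) in control and 38.1% (37.0 to 39.3) in knockout Müller glia-like cells, and 38.2% and 38.5% in neutrophil-like cells. In amacrine-like cells it gave 1.49% (0.600 to 3.04) and 0.960% (0.609 to 1.44), and in bipolar-like cells 1.91% and 0.888%. Transcript ends are counted once each, so these shares do not scale with gene length, but capture can differ between genes and the comparison is of 1 gene between classes.

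In amacrine-like cells Igtp and Gbp7 led in the control library and Iigp1 (25.6%) in the knockout library. Gbp7 gave 22.9% and 19.0% of member UMIs in amacrine-like cells and 28.7% and 32.9% in bipolar-like cells, and Igtp gave 22.9% and 22.0% in amacrine-like cells against 6.58% and 5.39% in Müller glia-like cells. The 5 IRGs together made up 69.0% and 76.0% of member UMIs in amacrine-like cells and 36.2% and 25.5% in Müller glia-like cells. Taking away an estimate of free RNA (RNA from other cells in the suspension), set at 17.3% and 15.1% of the library profile, lowered the summed level in amacrine-like cells from 67.6 to 11.4 CPM in the control and from 213 to 163 CPM in the knockout library. The library profile was summed over all kept cells, Müller glia-like cells included, and held 324 and 331 CPM of members. The estimate may therefore take away too much.

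Gbp5, which promotes NLRP3 inflammasome assembly, was a larger part in monocyte and macrophage-like cells (15.4% and 23.2%) and in control T and NK-like cells (14.4%) than in Müller glia-like cells (5.76% and 6.55%). In amacrine-like cells it had 1 control UMI and 5 knockout UMIs. Iigp1 gave 20.8% and 22.9% in endothelial-like cells, where it was the most abundant member at 134 and 213 CPM. Neutrophil-like cells all but lacked it, with 2 UMIs in 225 control cells and 2 in 164 knockout cells. They also had little Gbp3, at 10 and 0 UMIs, the latter of which allows up to 2.30 CPM.

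**Figure D3:**
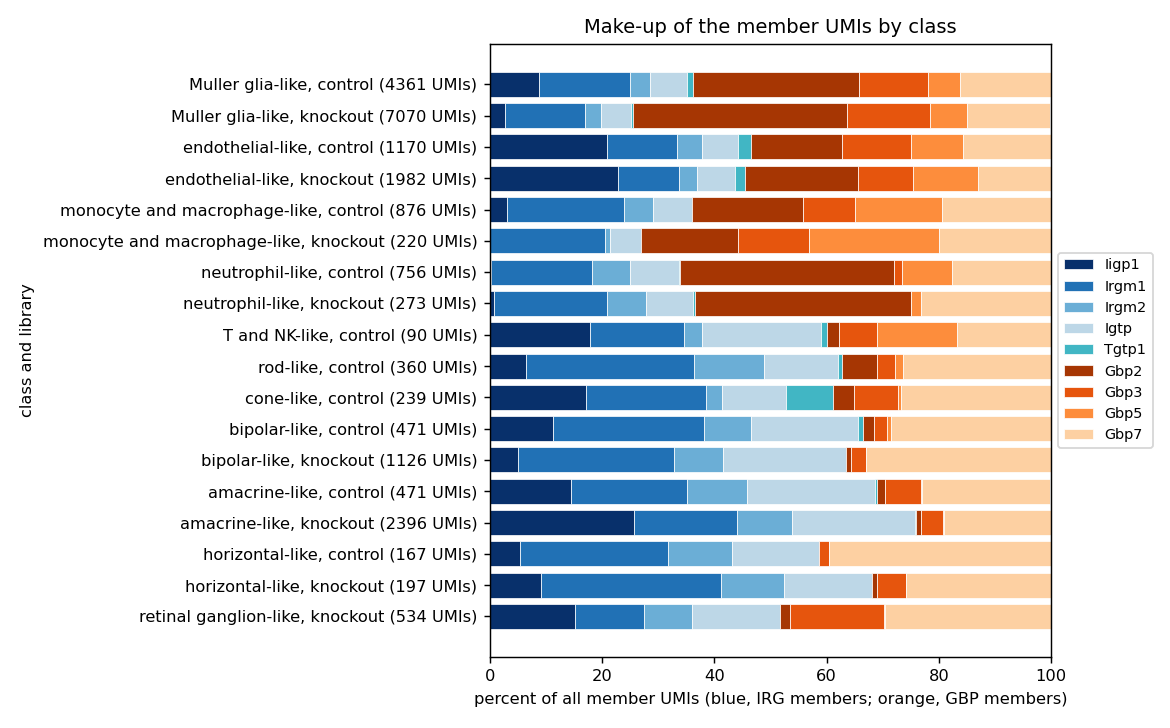
Share of each member in all member UMIs (horizontal axis, percent) for classes and libraries with at least 50 member UMIs; blue shades are IRG members and orange shades GBP members. Gbp2 takes 29.5% to 38.5% of the bar in Müller glia-like and neutrophil-like cells and under 2% in amacrine-like and bipolar-like cells.

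Within a class the members were spread unevenly over cells. At least 1 member UMI was seen in 76.8% (72.4 to 80.8) of control and 88.1% (85.2 to 90.6) of knockout Müller glia-like cells, and 25.6% and 29.9% of these cells had 5 or more of the 9 members. The 42 control cells with the most member UMIs held 58.1% of them, and the 59 knockout cells with the most held 40.1%. Rod-like cells, at median depths of 1107 and 1006 UMIs, had a member UMI in 10.4% and 10.3% of cells. With cells of at least 1000 UMIs thinned to 1000, the shares were 34.2% and 36.9% in Müller glia-like cells, 9.30% and 5.12% in rod-like cells, and 5.58% and 12.7% in amacrine-like cells. Shallower cells were left out, so the rod-like shares rest on 1780 of 2840 control and 151 of 302 knockout cells. The thinned amacrine-like share was thus below the rod-like share in the control library, so it is not read as expression there, and above it in the knockout library.

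Across Müller glia-like cells with at least 5000 UMIs (273 control and 511 knockout cells), the IRG sum and the GBP sum had a Spearman correlation of 0.52 (control) and 0.44 (knockout). These cells share a library and differ in depth, and the values are descriptions. The member sum had correlations of 0.22 and -0.14 with Lcn2, an acute-phase gene.

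In Müller glia-like cells, where Atg5 was targeted, the IRGs were lower in the knockout library over the whole class, and the GBP sum was close in both. By cluster the GBP sum went both ways, as given below. The 5 IRGs summed to 240 CPM (228 to 252) in control cells and 152 CPM (145 to 160) in knockout cells, a ratio of 0.636 (0.594 to 0.681). The 4 GBPs summed to 422 CPM (407 to 438) and 444 CPM (432 to 456), a ratio of 1.05 (1.00 to 1.10). The ratio for all 9 together was 0.901 (0.868 to 0.936). That ratio was 1.00 without the 5 cells per library with the most member UMIs, 1.07 as a mean over cells and 0.993 with TMM scaling, so no difference in the total could be read from it.

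Iigp1, an effector IRG that loads onto pathogen vacuoles, differed most. It was at 57.7 CPM (52.0 to 63.8) in control cells and 15.6 CPM (13.4 to 18.0) in knockout cells, a ratio of 0.271 (0.226 to 0.323). Few cells carried it: 5 cells held 207 of its 380 control UMIs and 98 of its 185 knockout UMIs, and 14.7% of control and 10.0% of knockout cells had any. Over the alternatives run the ratio ranged from 0.0396, with free RNA taken away (an estimate that may take too much), to 0.432, as a mean over cells.

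Tgtp1, the other effector IRG, had 49 control and 31 knockout UMIs, at 7.44 CPM (5.50 to 9.84) and 2.62 CPM (1.78 to 3.71), a ratio of 0.352 (0.217 to 0.563). Its neighbour Tgtp2 had 57 and 28 UMIs and a ratio of 0.273 (0.167 to 0.436). Of the regulatory IRGs, Irgm2 was at 23.8 and 16.0 CPM with a ratio of 0.673 (0.542 to 0.836), just outside the 1.5-fold threshold used to call a difference. Igtp was at 43.6 and 32.2 CPM (ratio 0.738, 0.631 to 0.863), and Irgm1, the most abundant IRG, at 107 and 86.0 CPM (ratio 0.802, 0.728 to 0.884). All 5 IRGs were lower in the knockout library, in 10 of 10 alternatives each.

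Gbp2, the most abundant member, was at 196 CPM (185 to 207) in control cells and 228 CPM (219 to 236) in knockout cells, a ratio of 1.16 (1.09 to 1.24). This direction depended on the cells included, with ratios from 0.936, when the unnamed clusters N7 and N10 were added, and 0.943, with cells named one by one, to 1.5 as a mean over cells. Gbp3 was at 81.4 and 88.5 CPM (ratio 1.09, 0.978 to 1.21) and Gbp5 at 38.1 and 39.1 CPM (ratio 1.03, 0.877 to 1.2), neither beyond counting error, and the direction of both changed under other settings. Gbp7 was at 107 and 89.1 CPM (ratio 0.830, 0.754 to 0.914), a ratio that was 1.01 as a mean over cells. Of the 8 members with at least 100 UMIs, 1 (Iigp1) was at least 1.5-fold lower and 0 were at least 1.5-fold higher. Of all 10650 genes with that many UMIs, 16.6% were lower and 3.77% higher by that fold. The median log2 ratio was -0.29 over the members and -0.15 over all genes.

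**Figure D4:**
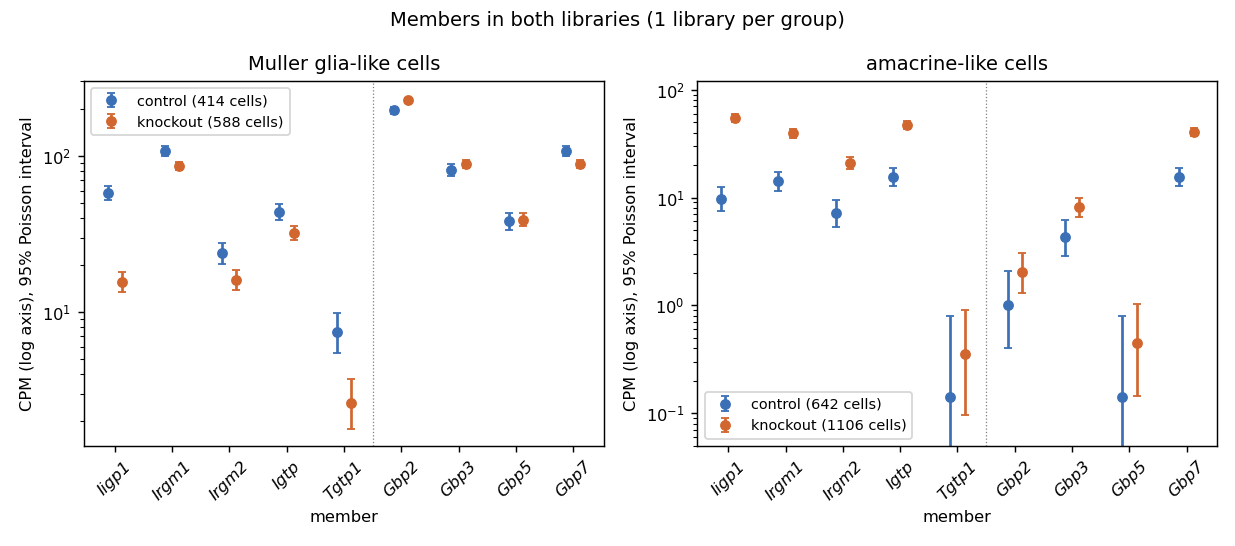
CPM of the 9 members (log axis) in Müller glia-like cells (left) and amacrine-like cells (right), with 95% Poisson intervals, for the control (blue) and knockout (orange) libraries. The IRGs, left of the dotted line, are lower in the knockout library in Müller glia-like cells (Iigp1 57.7 against 15.6 CPM) and higher in amacrine-like cells (Iigp1 9.75 against 54.5 CPM).

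Müller glia-like cells came from 7 clusters that the libraries filled unequally, and N5 alone held 129 control and 4 knockout cells, while N1 held 36 and 216. Iigp1 was lower in the knockout library in 7 of 7 clusters and the IRG sum in 6 of 7, the exception being N6 (150 and 182 CPM). For Iigp1 the intervals overlapped in N2 (8 and 5 UMIs), N5 (75 and 0 UMIs) and N6 (9 and 24 UMIs). They met in N1 (28 and 80 UMIs) and were apart in N3, N8 and N9. Those of the IRG sum were apart only in N3 and N9. Gbp2 was lower in 5 of 7 and higher in N1 (204 and 282 CPM) and N6 (136 and 263 CPM), so its class-level ratio joined clusters of both directions. The same held for the GBP sum, lower in 5 of 7 clusters, among them N3 (543 and 302 CPM) and N8 (394 and 220 CPM). It was higher in N1 (353 and 530 CPM) and N6 (363 and 566 CPM). Irgm1, Irgm2 and Igtp were each lower in 5 of 7 as well, so the clusters do not set the IRGs and GBPs clearly apart. The highest level was in 12 control cells of N9, with 1349 CPM of members and 328 CPM of Iigp1, against 636 and 5.35 CPM in 79 knockout cells of that cluster.

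Müller glia-like cells were also subclustered. Subcluster M1, which had the most Lcn2 of M0 to M3 in both libraries (43977 and 42264 CPM), had 737 and 430 CPM of members. M2, with the least Lcn2 (4126 and 10957 CPM), had 432 and 510 CPM. Iigp1 was 77.0 and 12.7 CPM in M1, 76.1 and 17.8 CPM in M0, 14.6 and 8.62 CPM in M2, and 33.7 and 14.6 CPM in M3. The intervals were apart in M0 and M1 and overlapped in M2 (27 and 9 UMIs) and M3 (5 and 4 UMIs).

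Of the other GTPases, some were lower and most did not pass the fold. Of 18 further GBP and IRG-related genes in the files, 7 had at least 100 UMIs, of which 3 were at least 1.5-fold lower and 0 higher. The shares of all genes in these cells, 16.6% lower and 3.77% higher, stand beside this count and those of the lists that follow. The lower genes were Gm4951, an IRG-like gene (26.0 and 11.9 CPM, ratio 0.458, 0.364 to 0.576), Gbp4 (15.6 and 8.19 CPM, ratio 0.523) and the IRG Ifi47 (19.6 and 11.9 CPM, ratio 0.608). Gbp9 had the highest ratio, at 1.23 (0.976 to 1.56), and Gbp6 the highest level, at 101 and 85.2 CPM, with Gm4951 next in the control library. Irgq was at 20.2 and 23.3 CPM.

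Upstream genes came next. Of the 7 receptor and kinase genes, 0 passed 1.5-fold in either direction: Ifngr1 was at 60.7 and 58.6 CPM, Ifngr2 at 25.8 and 23.0 CPM, Ifnar2 at 107 and 122 CPM, and the ends of the range were Tyk2 (ratio 0.718) and Jak1 (172 and 225 CPM, ratio 1.31). Of 10 transcription factors with at least 100 UMIs, 4 were at least 1.5-fold lower and 0 higher, beside 16.6% and 3.77% of all genes. They included Irf8 (ratio 0.527, 0.358 to 0.776), Irf1 (156 and 82.7 CPM, ratio 0.529, 0.485 to 0.578) and Nlrc5, the MHC class I activator (ratio 0.578). Stat3 had the highest level, at 519 and 469 CPM, and Irf7, at 137 and 145 CPM, the highest ratio, 1.06.

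Feedback genes went both ways. Socs1, which blocks JAK kinases, was at 54.8 and 110 CPM, a ratio of 2.01 (1.78 to 2.26), while Socs3, the inhibitor of gp130 signalling, was at 144 and 63.1 CPM (ratio 0.438, 0.397 to 0.482) and Pias1 at 77.7 and 45.2 CPM (ratio 0.582). Isg15 had the highest level, 324 and 293 CPM. Thus 1 of 6 feedback genes was higher and 2 were lower.

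The ATG8 conjugation and ubiquitin genes through which GBPs and IRGs reach membranes showed 1 of 13 lower and 0 higher. Atg16l1, the partner of the Atg12 and Atg5 conjugate, was at 24.0 and 12.6 CPM (ratio 0.524, 0.416 to 0.660). The highest ratio was of the ubiquitin ligase Traf6 (1.41, 1.14 to 1.76), and the highest levels were of the receptor Sqstm1 (292 and 362 CPM) and of Gabarap (310 and 338 CPM). Of genes downstream of GBPs in lytic death, 3 of 6 had at least 100 UMIs and none of these (Casp1, Casp4, Pycard) passed 1.5-fold.

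Other interferon gamma targets split, with 2 of 13 higher and 3 lower. The T cell chemokine Cxcl9 had 4 control and 98 knockout UMIs (0.607 and 8.27 CPM, ratio 13.6, 5.15 to 51) and Cxcl10 was at 205 and 325 CPM (ratio 1.58). The MHC class II gene H2-Ab1 was at 31.0 and 5.66 CPM (ratio 0.183, 0.136 to 0.242), the invariant chain Cd74 at 163 and 44.9 CPM (ratio 0.276) and the nitric oxide synthase Nos2 at 40.1 and 25.4 CPM (ratio 0.634). The most abundant, B2m, was at 1001 and 966 CPM, and H2-K1 at 820 and 696 CPM. Of 10 type I effectors, the sensor Ifih1 (ratio 1.62, 1.45 to 1.80) was higher, and Oas1a (ratio 0.621) and Ifi44 (ratio 0.660) were lower. Bst2 (704 and 809 CPM) and Ifit3 (401 and 501 CPM) had the highest levels there.

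The ligands themselves were rare. Ifng had 51 UMIs in 9 control cells and 0 UMIs in the 4661 knockout cells. Of the control UMIs, 43 were in 6 of 18 T and NK-like cells, 19 of them in 1 cell, and 6 in 1 cell of the unnamed cluster N10. The knockout library held 2 T and NK-like cells, too few to compare Ifng per cell. Ifnb1 had 1 UMI, in a control endothelial-like cell, and Ifnk had 2 control and 1 knockout UMIs. Ifna1, Ifna2, Ifna4, Ifna5, Ifne, Ifnl2 and Ifnl3 had 0 UMIs in both libraries. Of the cytokines that induce or accompany interferon gamma, Il12a had 587 and 369 UMIs, 380 and 189 of them in neutrophil-like cells, Il12b 7 and 1, Il18 656 and 951, and Il27 262 and 228. Il18 was at 34.0 and 33.5 CPM in Müller glia-like cells.

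In amacrine-like cells, a neuron class that the Müller glial GLAST promoter is not meant to target, the members were higher in the knockout library. Amacrine-like cells numbered 642 and 1106, at median depths of 7998 and 7997 UMIs. The summed level was 67.6 and 213 CPM, a ratio of 3.15 (2.86 to 3.49), and a member UMI was seen in 22.4% (19.3 to 25.9) and 43.9% (40.9 to 46.8) of cells. All 6 members with at least 100 UMIs were at least 1.5-fold higher, against 3.0% of 11706 genes (2.11% were lower). The minimum counts both libraries together, and Iigp1 (68), Irgm1 (98), Irgm2 (50) and Gbp3 (30) had fewer than 100 control UMIs. They passed it through their higher knockout counts, and the members were chosen with their direction known, so this count is a description and no enrichment. The medians of the log2 ratio were 1.5 over the 6 and 0.01 over all genes.

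Iigp1 in amacrine-like cells was at 9.75 CPM (7.57 to 12.4) and 54.5 CPM (50.3 to 59.0), a ratio of 5.59 (4.35 to 7.29), opposite to Müller glia-like cells. Single cells weighed on it, since 5 cells held 236 of its 613 knockout UMIs and 1 cell held 96. Without the 5 cells per library with the most member UMIs its ratio was 4.30. Igtp was at 15.5 and 46.9 CPM (ratio 3.03, 2.46 to 3.76), Irgm2 at 7.17 and 20.8 CPM (ratio 2.90), Irgm1 at 14.1 and 39.3 CPM (ratio 2.80, 2.24 to 3.52), Gbp7 at 15.5 and 40.6 CPM (ratio 2.62, 2.12 to 3.26) and Gbp3 at 4.30 and 8.18 CPM (ratio 1.90, 1.25 to 2.97). Gbp2, at 7 and 23 UMIs, had a ratio of 2.04 whose interval (0.846 to 5.62) held 1.

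The 5 amacrine-like clusters each had a higher summed level in the knockout library. Cluster A4 was at 62.1 and 219 CPM (ratio 3.52, 3.02 to 4.13), A13 at 137 and 483 CPM (ratio 3.52, 2.98 to 4.17), A18 at 26.8 and 72.5 CPM (ratio 2.70), A5 at 72.9 and 176 CPM (ratio 2.41) and A10 at 17.7 and 30.5 CPM (ratio 1.72, 0.971 to 3.15), whose interval held 1. Markers of other cells in amacrine-like cells were 926 and 240 CPM for rods, 625 and 602 CPM for Müller glia, 150 and 131 CPM for neutrophils and 77.6 and 63.2 CPM for endothelium, none higher in the knockout library. Other pathway genes, chosen after their values were seen and not counted as lists in this class, differed among themselves. Irf1 was at 14.2 and 46.8 CPM, Socs1 at 5.02 and 15.7 CPM, Gbp6 at 36.0 and 77.9 CPM and Gm4951 at 19.9 and 52.5 CPM. Jak1 was at 127 CPM in both libraries, Jak2 at 52.1 and 44.8 CPM, Ifngr2 at 20.9 and 17.5 CPM and Ifngr1 at 5.74 and 5.07 CPM.

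A small set of neurons carried many members at once. Cells with 5 or more of the 9 members numbered 7 control and 37 knockout amacrine-like cells, at 865 and 1006 CPM of members. They had been picked by those members, and the other genes named here were chosen after their values were seen. Genes that vary with the members can differ in cells picked this way, so the values are descriptions. In the 37 knockout cells B2m was at 432 CPM against 119 CPM in the other 1069 amacrine-like cells, Psmb8 at 118 against 23.0 CPM and Irf1 at 172 against 36.7 CPM. Müller markers were at 397 CPM in them and 619 CPM in the other cells, and the part of other-cell RNA was not tested. The 37 cells were deeper, with a median of 19266 UMIs against 7604, and more members can be seen in a deeper cell.

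Cone-like cells were lower in the knockout library, and 7 control cells held most of the UMIs. The level was 250 CPM in 115 control cells and 10.2 CPM in 101 knockout cells, but 7 control cells with 5 or more members held 210 of the 239 UMIs. In these 7 cells members were at 2093 CPM, B2m at 887 CPM, Psmb8 at 429 CPM and Ifit3 at 548 CPM, against 33.9, 21, 3.5 and 4.67 CPM in the other 108. The 7 cells had been picked by the members and were deeper, with a median of 13545 UMIs against 8558, so these values are descriptions. Cone markers were at 20619 and 20770 CPM in these 7 cells and the others, and Müller markers at 69.8 and 169 CPM. The knockout library held 0 cone-like cells with 5 or more members. Retinal ganglion-like cells were at 37.3 and 189 CPM, with 312 of 534 knockout UMIs in 5 cells.

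Bipolar-like cells were at 94.9 and 140 CPM, a ratio of 1.48 (1.32 to 1.65). Of 5 members with at least 100 UMIs, 3 were at least 1.5-fold higher (Irgm1, 1.54; Igtp, 1.69; Gbp7, 1.69) and 1 was lower (Iigp1, 0.652, 0.440 to 0.968), against 2.53% of all genes higher and 2.95% lower. Igtp, at 90 and 247 UMIs, passed the minimum through its knockout count, so these counts are descriptions and no enrichment. Irgm2, with a ratio of 1.5 after rounding, lay just outside the threshold. By cluster Iigp1 went both ways, with 12 control and 47 knockout UMIs in A2, 29 and 7 in A7, and 12 and 2 in A9. The summed ratio was 1.47 in A2, 1.48 in A7 and 1.05 (0.798 to 1.38) in A9. With free RNA taken away, bipolar-like cells were left at 0 and 4.89 CPM, and cone-like cells at 0 in both libraries. That estimate may take away too much, so these values do not show that the members were absent. In rod-like cells the summed members differed by less than counting error, with a ratio of 0.783 (0.547 to 1.09), with 360 control and 39 knockout UMIs. The families differed there: the IRG sum had a ratio of 1.05 (0.709 to 1.52) and the GBP sum 0.323 (0.117 to 0.723). Gbp7 had 95 and 2 UMIs, a ratio of 0.152 (0.0182 to 0.565), below the minimum of 100 UMIs. In the unnamed cluster A0, which scored highest for rod and next for lens markers, Gbp7 had 282 and 3 UMIs.

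**Figure D5:**
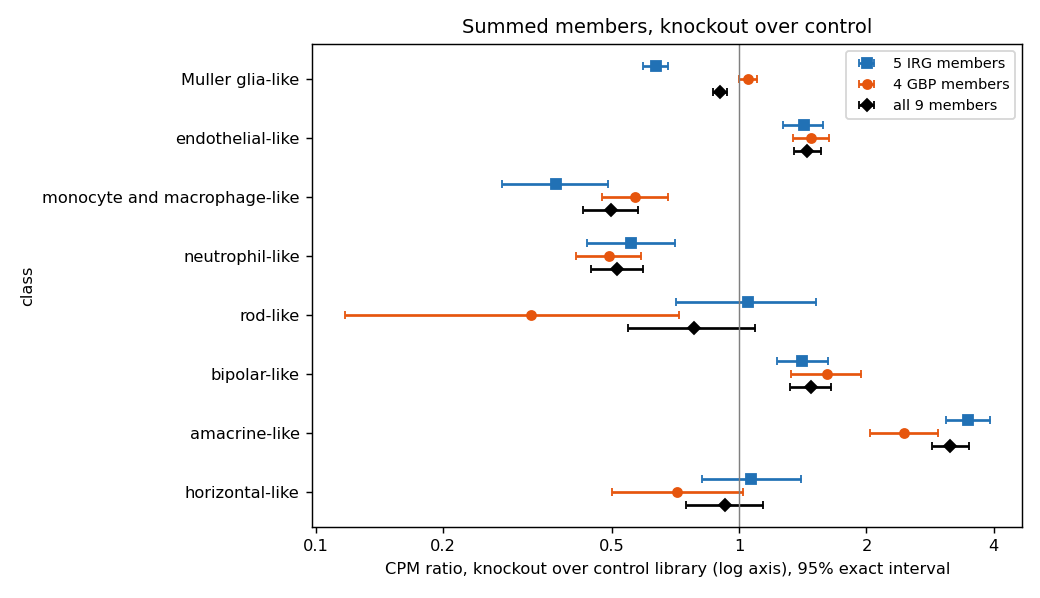
Ratio of CPM, knockout over control library (log axis), of the summed IRG members (blue squares), GBP members (orange circles) and all members (black diamonds) by class, with 95% exact intervals. Amacrine-like (3.15), bipolar-like (1.48) and endothelial-like cells (1.45) lie above 1, and neutrophil-like (0.515) and monocyte and macrophage-like cells (0.497) below 1.

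Endothelial-like cells (55 and 50 cells) were at 643 and 932 CPM, a ratio of 1.45 (1.35 to 1.56). Of 8 members with at least 100 UMIs, 3 were at least 1.5-fold higher, Gbp2 (103 and 188 CPM, ratio 1.82, 1.52 to 2.17), Gbp5 (60.5 and 107 CPM, ratio 1.77, 1.41 to 2.25) and Iigp1 (134 and 213 CPM, ratio 1.60, 1.36 to 1.87), and 0 were lower, against 2.48% of all genes higher and 5.68% lower. Igtp, with a ratio of 1.5 after rounding, lay just outside the threshold. The class joined clusters N12 (36 and 22 cells) and N13 (19 and 28 cells, with pericyte markers second). In the top 5 cells lay 464 of 1170 control and 757 of 1982 knockout member UMIs. Neutrophil markers were at 2276 and 98.2 CPM in these cells. T and NK markers went the other way, at 0.550 and 20.7 CPM (1 and 44 UMIs). The part of these other-cell transcripts in the result was not tested.

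The immune classes had lower levels in the knockout library. Monocyte and macrophage-like cells (94 and 51 cells) were at 383 and 190 CPM, a ratio of 0.497 (0.427 to 0.577), and 3 of 5 members with at least 100 UMIs were at least 1.5-fold lower (Gbp2, 0.435; Irgm1, 0.490; Gbp7, 0.512), against 6.27% of all genes lower and 3.42% higher. These 3 had 38, 45 and 44 knockout UMIs and passed the minimum through their higher control counts. The count is therefore a description and no enrichment. Gbp3 lay just outside the threshold at 0.676. Iigp1 had 27 control and 0 knockout UMIs there, and 0 UMIs allow up to 2.60 CPM against 11.8 CPM in the control library. Neutrophil-like cells (225 and 164 cells) were at 406 and 209 CPM, a ratio of 0.515 (0.446 to 0.592), and 2 of 3 members were lower (Gbp2, 0.518; Irgm1, 0.581), against 15.5% of all genes lower and 3.54% higher. Irgm1, at 135 and 55 UMIs, passed the minimum through its control count, so this too is a description and no enrichment. Gbp7 lay just outside the threshold at 0.670. Rod markers in neutrophil-like cells were at 2887 and 709 CPM and monocyte and macrophage markers at 2031 and 1286 CPM, and cluster N11 gave 56 control and 5 knockout cells of that class. Regulators in these cells, not picked by a rule, differed among themselves. Irf1 was at 115 and 50.2 CPM in monocyte and macrophage-like cells and at 111 and 42.9 CPM in neutrophil-like cells. Irf7 was at 430 and 339 CPM in the former and 454 and 364 CPM in the latter. Ifngr2 was at 136 and 153 CPM in the former and 144 and 117 CPM in the latter. Neutrophil markers in monocyte and macrophage-like cells were at 3083 and 6841 CPM and Müller markers at 4582 and 1839 CPM, and their part in the result was not tested.

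Over the 17 pairs of class and library with at least 50 cells, genes were ranked by how closely their log2(CPM + 5) followed that of the summed members. Pearson's r was 0.91 for Ifi27, 0.90 for Irf1, 0.89 for H2-T23, 0.86 for H2-Q4 and Psmb8, and 0.85 for Ifit3, Bst2 and Fbxo6, among genes with at least 500 UMIs. Within the control and the knockout library alone, ranks were 16 and 9 for Ifi27 and 7 and 1 for Irf1. They were far apart for H2-Q4 (2 and 92), Bst2 (161 and 4) and Fbxo6 (350 and 5), so their places depended on the library. The pairs share libraries and the values are descriptions. Among members, Irgm2 and Igtp were nearest each other (r 0.87), Gbp7 was nearest Irgm1 (0.86), and Gbp2 and Gbp5 were nearest each other as members (0.89). The single gene most like Gbp2 was Zfp36l1 (0.98), Gbp5 was closest to Tagln2 (0.96), Gbp3 to Mtap (0.93), Iigp1 to Mast4 (0.87), Irgm1 to Irf1 (0.91) and Tgtp1 to Gm50333 (0.81).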

How the data were processed

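Single-cell libraries of mouse retina were made with 10x Genomics 3' v3.1 reagents after papain dissociation, per the labels' protocols. The deposited matrices hold raw UMI counts per gene and barcode, which the authors made with Cell Ranger 6.0.0 on mm10, per the submitters' processing notes. No source used here names the annotation. The feature lists have 32285 entries, and for 40 repeated symbols the first was used.

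Cells with at least 500 genes and under 25% mitochondrial UMIs were kept, the filter stated in the design text. Clustering used Seurat 5.3.0 (R 4.3.3) with 2000 variable genes, 11 components, resolution 1.0 and seed 1. A cluster was named where at least 3 markers of a class were detected, its score was at least 1 and it led the next class by at least 1 (mean log2 fold over the median cluster). Other clusters stayed unnamed, and differences from the study's own classes may come from these rebuilt names. Doublets were not removed in the reported values.

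UMIs were summed per class and library and given as CPM with exact Poisson intervals. Ratios have exact conditional binomial intervals and shares Clopper-Pearson intervals, at 95%. A difference was called at 1.5-fold among genes with at least 100 UMIs over both libraries, so a gene can pass through the library where it is high. A count of 0 was read as up to 3 counts. There was no test and no p-value, since each group had 1 library. The functions were tested on simulated data with known folds. The 9 members, the 21 marker lists and the 11 gene lists were chosen with earlier results of these data known. Named genes were all members in every class, and of each list those in Müller glia-like cells with the highest and lowest ratio among genes with at least 100 UMIs, the highest levels, every ligand with a UMI, and the genes most alike in pattern. Some genes were named outside this rule, among them further genes past 1.5-fold, Irgq, Tgtp2, Ifngr1 and Ifngr2, and regulators in the immune classes. Other genes named in amacrine-like cells and in cells with 5 or more members were chosen after their values were seen. Alternatives were run with scanpy 1.11.5 (Scrublet), edgeR 4.0.16 (TMM) and Python 3.11.15. The values of 1 gene of the transcription factor list are not reported here.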

Additional observations from a re-analysis of the deposited data

Results flagged for a closer look

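Some members differed past 1.5-fold in opposite directions in different classes of the same 2 libraries. These differences between classes were not tested, since each group had 1 library. The member sum was lower in the knockout library in monocyte and macrophage-like (0.497) and neutrophil-like cells (0.515) and higher in amacrine-like cells (3.15). Iigp1 had ratios of 0.271 in Müller glia-like and 0.652 in bipolar-like cells, and of 1.60 in endothelial-like and 5.59 in amacrine-like cells. Among bipolar-like cells it was lower in clusters A7 and A9 and higher in A2 (12 control and 47 knockout UMIs). Irgm1 had ratios of 0.490 in monocyte and macrophage-like, 0.581 in neutrophil-like, 1.54 in bipolar-like and 2.80 in amacrine-like cells. Gbp2 had ratios of 0.435, 0.518 and 1.82 in monocyte and macrophage-like, neutrophil-like and endothelial-like cells. Gbp7 had ratios of 0.512, 1.69 and 2.62 in monocyte and macrophage-like, bipolar-like and amacrine-like cells.

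Cells outside the named classes also held many members. In cluster N7 (58 control and 47 knockout cells), which had Chil1, Lcn2, Cfb and C3 among its leading genes and scored highest for Müller markers without reaching the lead needed for a name, members were at 755 and 513 CPM. There 5 control cells held 1520 of 3396 member UMIs, and the medians over cells were 455 and 436 CPM. In cluster N10 (18 and 60 cells), which scored nearly alike for Müller (3.72) and neutrophil markers (3.54), they were at 788 and 374 CPM, and 1 control cell held 221 of the 291 control UMIs.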

How the results depend on the processing

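All ratios are knockout over control. For the summed members in Müller glia-like cells (0.901), 7 of 10 alternatives lay outside the counting interval. They were 0.811 with cells named one by one, 0.839 with free RNA taken away and 0.80 with clusters N7 and N10 added (chosen after seeing the data). Further values were 0.993 with TMM scaling, 1.00 without the 5 cells with most member UMIs and 1.07 as the mean of per-cell CPM. That mean over only the cells with at least 1000 UMIs gave 1.03, and no counts were thinned for it. The amacrine-like ratio (3.15) stayed above 1 in 9 of 9 alternatives. It was 2.41 as the mean of per-cell CPM, 2.45 as that mean over cells with at least 1000 UMIs and 2.64 with cells named one by one. With free RNA taken away it was 14.3. That estimate leaves 11.4 CPM in the control library and may take away too much in every class. The mean over cells with at least 1000 UMIs gave 1.33 in endothelial-like (1.45) and 0.486 in rod-like cells (0.783). In rod-like cells stricter cell filters gave 0.441, and the mean of per-cell CPM over all cells gave 1.07, on the other side of 1. Free RNA removal gave 0.412 in monocyte and macrophage-like (0.497) and 0.264 in neutrophil-like cells (0.515), and it left bipolar-like cells at 0 and 4.89 CPM and cone-like cells at 0 in both libraries, so no ratio there. Leaving out the top 5 cells gave 1.65 in bipolar-like cells (1.48). Iigp1, Irgm1, Irgm2, Igtp and Tgtp1 in Müller glia-like cells kept their direction in 10 of 10 alternatives each, and Gbp2 in 8 of 10. The share of all genes past the fold in Müller glia-like cells (16.6% lower) ran from 5.42% to 22.4% with other minimums or 2-fold. Depth limits Tgtp1, and Gbp2 and Gbp5 in neurons, to a few UMIs. The Scrublet caller marked 0 cells by its own threshold and has not worked here, so 548 and 174 cells with the highest scores were left out instead. No paired analysis was possible because each group has 1 library.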
